A study of Rattus norvegicus with 12 samples.

Results

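The 9 genes described here carry glucose into the cell and through the early steps of glycolysis that commit it to the pathway. They are the transporters Slc2a1 and Slc2a3, the hexokinases Hk1 and Hk2, the phosphofructokinase subunits Pfkl, Pfkm and Pfkp, and the bifunctional enzymes Pfkfb3 and Pfkfb4. A probe set was taken when the array annotation gave it 1 gene symbol and that symbol was on the list. All 9 genes were represented, by 16 of the 31042 probe sets tested, and the array as a whole held 14217 named genes. A further 3 probe sets with the symbol Hk1 are quality controls of the array, which were read array by array and not tested.

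Glucose enters fibroblasts by facilitated diffusion through GLUT transporters and is trapped inside the cell when a hexokinase phosphorylates it. Phosphofructokinase, a tetramer of liver, muscle and platelet type subunits, then adds a further phosphate to fructose phosphate in the committing step of glycolysis. Its strongest activator, a bisphosphate of fructose, is made and broken down by the PFKFB enzymes. In tumour cells and in cells short of oxygen these steps are well known for being raised, with SLC2A1, HK2 and PFKFB3 among the classical targets of the hypoxia-inducible factors in mammalian cells.

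F111 is a normal fibroblast line of the Fischer rat. Tumor cells were F111 cells taken into culture from subcutaneous tumours of nude mice, which had been injected with cells kept 16 h in suspension (NA16), and the labels place them 3 months after injection. A16 cells were F111 cells left to adhere to plastic for 16 h. The labels give both kinds of cell the same medium and serum, while by the methods tumour explants were plated in more serum, and neither says that host cells of the mouse were removed from them. RNA was hybridised to Affymetrix rat arrays, where a probe set is a group of short probes to 1 transcript. Each group had 3 arrays, called replicate 1, technical replicate 2 and replicate 2 below. Technical replicate 2 was averaged with replicate 1, which left n = 2 per group. The labels call replicates 1 and 2 biological and the study describes biological and technical repeats, but neither says whether they were separate cultures or animals, so each p-value rests on the spread seen among these arrays alone, which may be technical in part.

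Array intensities had medians of 98.0 to 100 after RMA, which the authors used beside PLIER, and are given as log2 RMA intensity unless PLIER is named. Arrays correlated at 0.991 to 0.997 within a group and at 0.933 to 0.949 between groups (Pearson, over probe sets). On the array's control genes the excess of the 3′ over the 5′ probe set was larger on every Tumor than on any A16 array. For beta-actin it was 2.25 to 2.37 in Tumor and 0.64 to 0.71 in A16. For Gapdh it was 0.25 to 0.33 in Tumor and -0.05 to 0.0 in A16. The difference in 3′ excess followed the groups, and its part in the values below was not tested. Of 12 fibroblast markers 3 were called lower in Tumor, namely Col1a1, Thy1 and Col1a2, and 9 were not called. The summed linear intensity of the list was 49829 to 51324 in Tumor and 73416 to 82381 in A16, a sum in which the brightest genes weigh most. Among these, Col1a1 averaged 10.73 in Tumor and 14.19 in A16, and Col1a2 12.56 in Tumor and 13.96 in A16. Other bright markers were not called, with S100a4 at 14.19 in Tumor and 13.95 in A16. Col3a1 stood at 11.72 in Tumor and 11.79 in A16, and Pdgfra at 10.37 in Tumor and 10.43 in A16. Vimentin (Vim), the intermediate filament of fibroblasts, stood at 14.19 in Tumor and 14.29 in A16, whereas Dcn, Lum and Fap, which are also known from fibroblasts, were dim in both groups.

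In the test across all probe sets (limma, Benjamini-Hochberg adjustment), a probe set was called when its adjusted p was under 0.05 and its change at least 2-fold. By this rule 11.9% of all probe sets were called, 5.51% higher and 6.39% lower in Tumor. Among the 16 probe sets of the 9 genes, 1 was called higher, that of Slc2a1, and 2 were called lower, 1 of 3 for Pfkm and 1 of 3 for Pfkfb3. The other 13 were not called. An adjusted p under 0.05 at any fold was reached by 5 of the 16, 1 higher and 4 lower, against 31.8% of all probe sets. The median difference of the 16 was 0.00, beside 0.03 over all probe sets. Beside these background shares nothing is read from the counts for the 9 genes together, and the account below goes gene by gene. For every value, a change in the share of a cell type and a change in RNA per cell cannot be told apart in such bulk samples.

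**Figure D1:**
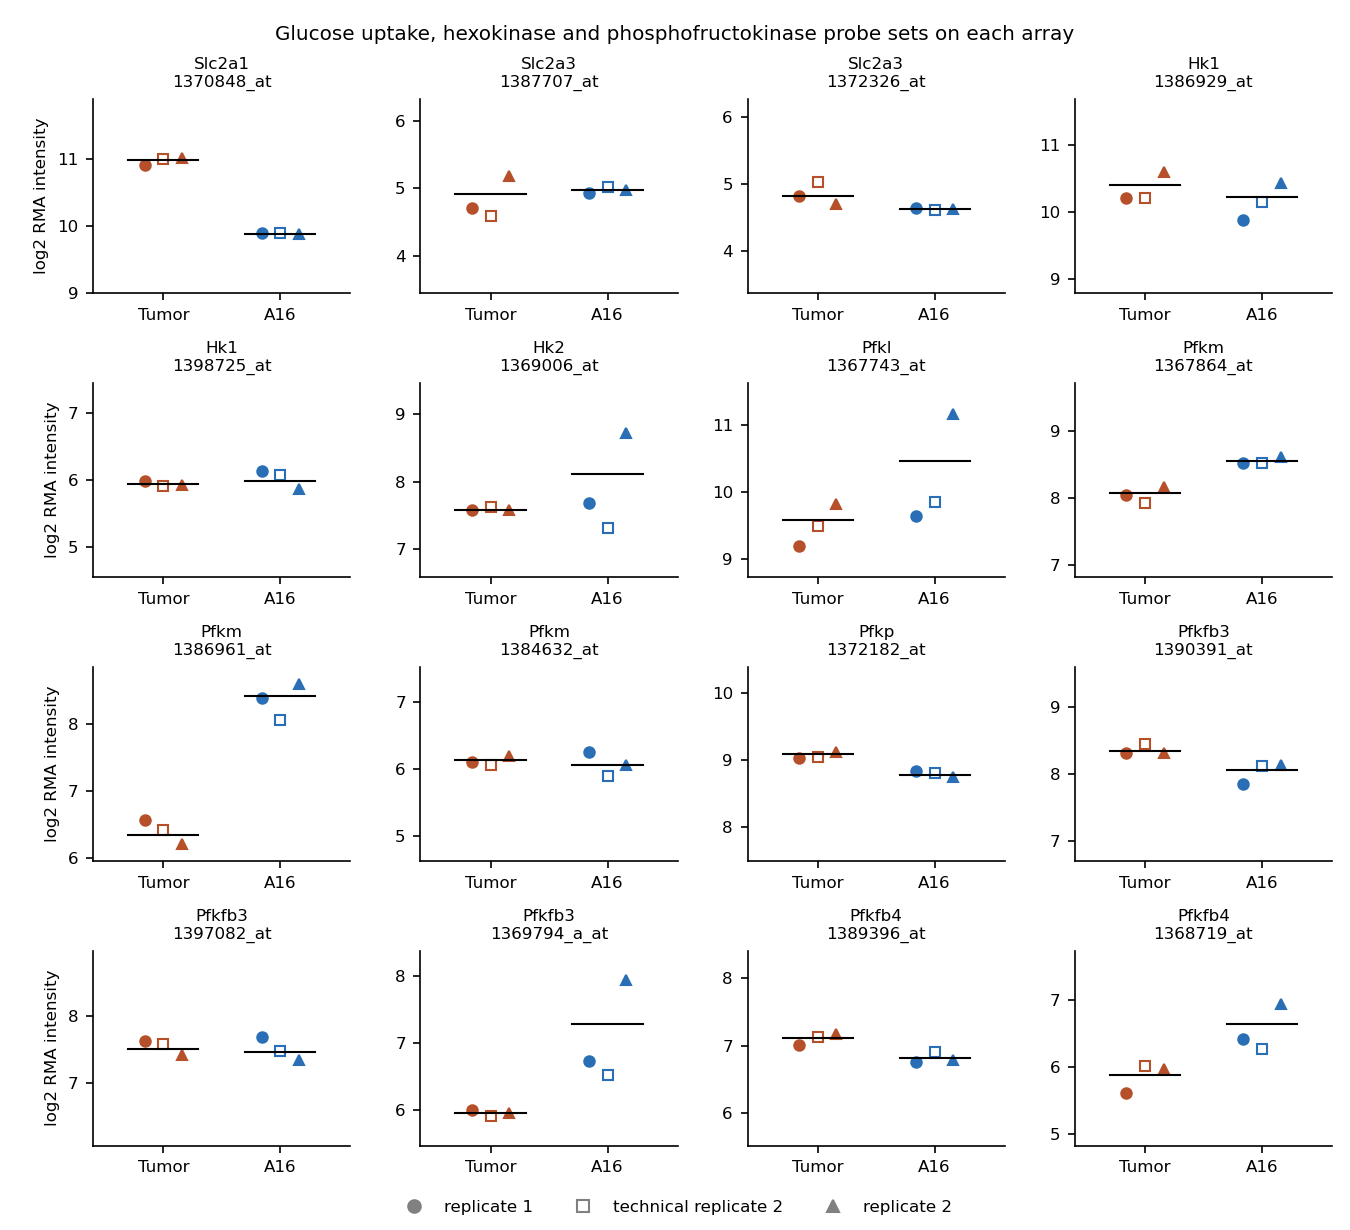
Log2 RMA intensity (vertical axis, each panel spanning the same range of log2 units) of the 16 probe sets on each of the 6 arrays, Tumor on the left and A16 on the right of each panel, with a bar at the mean of the 2 replicates after averaging replicate 1 with technical replicate 2. The Tumor and A16 arrays of Slc2a1 and of Pfkm 1386961_at lie far apart, and A16 replicate 2 stands above the other A16 arrays for Hk2, Pfkl and Pfkfb3 1369794_a_at.

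Slc2a1, which encodes the GLUT transporter responsible for basal glucose uptake in most cells, was higher in Tumor. Its probe set read 10.91 in replicate 1, 11.0 in technical replicate 2 and 11.02 in replicate 2 of Tumor, against 9.90, 9.90 and 9.88 in the same arrays of A16. The groups were well separated and the arrays of each lay within 0.12 of each other. The mean was 10.99 ± 0.05 in Tumor and 9.89 ± 0.01 in A16 (SD, n = 2 each), a log2 difference of 1.10 ± 0.11 (SE), or 2.14-fold (limma, adjusted p = 0.00065). The difference stayed between 1.06 and 1.20 in all 13 alternative treatments of the data that gave a value for it, and the call held in all 13.

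The bases upstream of Slc2a1 are shown because it was the gene called higher and is a classical target of the hypoxia-inducible factors, which bind a core of ACGTG or GCGTG. Both cores were searched on both strands, and capitals mark them in the 250 bases before the start of the gene (RefSeq, GRCr8, chr5:138002272-138002521, plus strand), which held 1 match to ACGTG and 3 to GCGTG.
Slc2a1: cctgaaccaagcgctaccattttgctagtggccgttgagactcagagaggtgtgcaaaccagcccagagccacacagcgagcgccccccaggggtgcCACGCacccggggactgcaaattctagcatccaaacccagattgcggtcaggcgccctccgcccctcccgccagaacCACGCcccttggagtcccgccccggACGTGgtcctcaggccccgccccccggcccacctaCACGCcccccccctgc
Such letters are common, since 41.6% of 33469 promoter windows of 300 bases in the same table held at least 1 of the 2 cores on either strand. Among the 9 genes 8 had an entry, and 6 of these held a core, Slc2a1, Pfkm, Pfkp, Pfkfb3, Pfkl and 1 of the 2 windows of Hk1. A match is a description of the sequence, not a site.

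Slc2a3, the high-affinity transporter best known from neurons, was near the floor of the array on both of its probe sets, and neither was called. Probe set 1387707_at read 4.71, 4.59 and 5.18 in Tumor, against 4.93, 5.02 and 4.98 in A16, values that overlap. Its difference was -0.06 ± 0.18 (adjusted p = 0.834). Probe set 1372326_at read 4.83, 5.03 and 4.71 in Tumor, against 4.65, 4.61 and 4.63 in A16, a difference of 0.19 ± 0.12 (adjusted p = 0.309). Here the Tumor arrays all lay above those of A16, but by less than the Tumor arrays differed from each other. On every array both probe sets ranked low, between percentiles 8.73 and 21.7 of the array for the first and between 10.2 and 18.1 for the second, where a change is understated. With PLIER, the authors' other summary of the same arrays, the second stood at 6.51 in Tumor and 5.86 in A16, and its difference of 0.65 was under 2-fold (adjusted p = 0.0179).

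Hk1 encodes the hexokinase of most tissues, which sits on the outer membrane of mitochondria. Probe set 1386929_at read 10.21, 10.21 and 10.60 in Tumor, against 9.88, 10.16 and 10.44 in A16. The ranges overlapped, replicate 2 was the highest array of each group, and the difference was 0.18 ± 0.19 (adjusted p = 0.546). Its direction turned when Tumor replicate 2 (-0.02) or A16 replicate 1 (-0.03) was left out. The dimmer 1398725_at read 5.99, 5.92 and 5.93 in Tumor, against 6.13, 6.08 and 5.87 in A16, a difference of -0.04 ± 0.13 (adjusted p = 0.834). A change of Hk1 transcripts was therefore not detectable on either probe set with these arrays.

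The control probe sets that carry the symbol Hk1 gave other values. They probe the 3′ end, the middle and the 5′ end of a rat hexokinase transcript and are meant for judging RNA and labelling quality. The 3′ control read 7.61, 7.65 and 7.71 in Tumor, against 8.22, 7.97 and 9.34 in A16. The middle control read 7.35, 7.41 and 7.43 in Tumor, against 8.10, 7.82 and 8.42 in A16, and the 5′ control 5.78, 5.36 and 5.78 in Tumor, against 7.27, 6.58 and 8.50 in A16. All 3 were lower on every Tumor array, by -1.05 at the 3′ end, -0.79 in the middle and -2.03 at the 5′ end. The excess of the 3′ over the 5′ control was 1.83 to 2.30 in Tumor and 0.84 to 1.39 in A16, as for beta-actin above, and the part of this 3′ excess in the lower control values was not tested. On the A16 arrays the controls were highest in replicate 2 and lowest in technical replicate 2. Hk2 shared this order, as did Pfkm 1386961_at, Pfkfb3 1369794_a_at and Pfkfb4 1368719_at. Hk1 1386929_at, lowest in replicate 1, did not. Which hexokinase the controls read was not checked.

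Hk2, the hexokinase of insulin-sensitive tissues and of many tumours, was even across Tumor arrays and uneven across those of A16. Its probe set read 7.58, 7.62 and 7.57 in Tumor, against 7.68, 7.31 and 8.73 in A16. All of the Tumor values thus lay between the 2 lower A16 arrays, and A16 replicate 2 stood 1.06 above the next A16 array. The mean was 7.58 ± 0.02 in Tumor and 8.11 ± 0.88 in A16 (SD, n = 2 each), a difference of -0.53 ± 0.36 that was not called (limma, adjusted p = 0.333). Without A16 replicate 2 the difference was 0.09, and without A16 replicate 1 it was -1.15. Its size and its direction thus rest on which A16 replicate is taken. Each of these fits leaves 1 A16 replicate, so the spread within A16 does not enter them and no p-value is given. The paper's own table lists Hk2 in tumour cells as unchanged on its arrays and as higher by quantitative PCR.

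Pfkl, the liver type subunit of phosphofructokinase, had the same unevenness. Its probe set read 9.19, 9.49 and 9.81 in Tumor, against 9.64, 9.85 and 11.15 in A16. The groups overlapped because Tumor replicate 2 lay above A16 replicate 1, and A16 replicate 2 stood 1.30 above the next A16 array. The difference was -0.88 ± 0.43 and not called (limma, adjusted p = 0.177). It was -0.18 without A16 replicate 2 (adjusted p = 0.556) and -1.58 without A16 replicate 1 (adjusted p = 4.36e-05, called).

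Pfkm, the muscle type subunit, was measured by 3 probe sets that gave different answers. The probe set 1386961_at read 6.56, 6.41 and 6.20 in Tumor, against 8.38, 8.06 and 8.59 in A16. No arrays overlapped, and the gap between the groups was larger than the spread within either. The mean was 6.34 ± 0.20 in Tumor and 8.41 ± 0.27 in A16 (SD, n = 2 each), a difference of -2.06 ± 0.17, which is 4.18-fold lower in Tumor (limma, adjusted p = 0.000329). The call held in all 13 alternatives that refitted limma, with differences of -2.25 to -1.88. The paper's own table, which names no probe set, lists Pfkm in tumour cells as unchanged on its arrays and as higher by quantitative PCR.

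The other probe sets of Pfkm moved less. The probe set 1367864_at read 8.05, 7.93 and 8.17 in Tumor, against 8.52, 8.52 and 8.61 in A16. It too was lower on all Tumor arrays, with a difference of -0.48 ± 0.12 that passed the adjusted p (0.0234) at less than 2-fold. The probe set 1384632_at read 6.10, 6.06 and 6.19 in Tumor, against 6.25, 5.89 and 6.06 in A16, which overlap, with a difference of 0.07 ± 0.11 (adjusted p = 0.693). Which part of the transcript each probe set reads is not given in the sources used here, and the 3′ bias that differed between the groups was not tested against them. Of 10 markers of skeletal muscle, the tissue this subunit is named for, none was called by RMA or by PLIER, and 3 passed the adjusted p at less than 2-fold. Their summed linear intensity was 4663 to 5561 in Tumor and 3776 to 4476 in A16, but most of that was Myh1. Without it the other 9 summed to 604 to 691 in Tumor and 774 to 889 in A16. Des, the brightest of these, averaged 8.24 in Tumor and 8.91 in A16, at percentiles of 66.2 to 77.2. The 3 that passed the adjusted p were Des (-0.67) and Acta1 (-0.40), lower in Tumor, and Ckm (0.49), higher. The fast fibre myosin Myh4 and myoglobin (Mb) were at the floor of the array, with percentiles of at most 1.42 and 20.2 on any array.

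The upstream bases of Pfkm are printed as those of a gene with a probe set called lower, with the same cores in capitals (RefSeq, GRCr8, chr7:131113849-131114098, plus strand).
Pfkm: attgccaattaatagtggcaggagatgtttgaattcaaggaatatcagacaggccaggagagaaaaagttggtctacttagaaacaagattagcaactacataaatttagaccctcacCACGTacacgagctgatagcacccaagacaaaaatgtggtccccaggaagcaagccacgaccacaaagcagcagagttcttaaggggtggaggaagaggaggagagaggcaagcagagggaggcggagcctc
They held 1 match to ACGTG, on the other strand, and none to GCGTG. Of all windows, 19.3% held ACGTG.

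Pfkp, the platelet type subunit, was steady within both groups and slightly higher in Tumor. Its probe set read 9.03, 9.05 and 9.12 in Tumor, against 8.83, 8.80 and 8.75 in A16. The 3 Tumor arrays lay above the 3 A16 arrays, but the difference of 0.30 ± 0.11, or 1.23-fold, did not pass the test (limma, adjusted p = 0.0888). It was 0.26 to 0.36 in the alternatives and was never called. Of the 3 subunits, then, the liver and platelet types were not called and the muscle type was called lower on 1 of 3 probe sets.

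Pfkfb3, whose product has by far the highest ratio of kinase to phosphatase activity in its family and is inducible in proliferating cells, was measured by 3 probe sets. The brightest, 1390391_at, read 8.31, 8.45 and 8.32 in Tumor, against 7.85, 8.12 and 8.14 in A16. Each Tumor array lay above each A16 array, with a difference of 0.29 ± 0.12 that was not called (limma, adjusted p = 0.113). By PLIER the same probe set averaged 8.49 in Tumor and 7.82 in A16, a difference of 0.68 that passed the adjusted p (0.0113) at 1.6-fold. The probe set 1397082_at read 7.63, 7.58 and 7.41 in Tumor, against 7.69, 7.47 and 7.34 in A16, which overlap, with a difference of 0.05 ± 0.14 (adjusted p = 0.826). The sign of this second probe set turned under PLIER, to -0.49.

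The third probe set of Pfkfb3, 1369794_a_at, was called lower in Tumor. It read 6.0, 5.91 and 5.96 in Tumor, against 6.73, 6.52 and 7.93 in A16. All Tumor arrays lay below those of A16, and within A16 replicate 2 stood 1.19 above the next array. The mean was 5.96 in Tumor and 7.28 ± 0.92 in A16 (SD, n = 2), where the 2 Tumor replicates differed by less than 0.01. The difference was -1.32 ± 0.38, or 2.50-fold lower in Tumor (limma, adjusted p = 0.0395). Without A16 replicate 2 it was -0.67 and no longer reached 2-fold. The call was also lost without Tumor replicate 1, without Tumor replicate 2 and with a trended, robust variance prior (limma, adjusted p = 0.11). It held in 9 of the 13 alternatives that refitted limma, over which the difference ranged between -1.97 and -0.67. These 13 include fits with 1 replicate left in a group, where the spread within that group plays no part.

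The upstream bases of Pfkfb3 are shown as those of the other gene with a probe set called lower (RefSeq, GRCr8, chr17:71944683-71944932, plus strand).
Pfkfb3: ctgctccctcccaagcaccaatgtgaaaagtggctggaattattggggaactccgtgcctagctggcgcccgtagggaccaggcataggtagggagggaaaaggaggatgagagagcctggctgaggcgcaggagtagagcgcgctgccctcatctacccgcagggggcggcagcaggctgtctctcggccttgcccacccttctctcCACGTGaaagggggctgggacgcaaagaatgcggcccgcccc
The capitals mark 2 overlapping matches to ACGTG, 1 on each strand, which together spell CACGTG, the E-box that Myc and carbohydrate-responsive factors bind. CACGTG was found in 6.42% of all windows and in 1 of the 8 genes with an entry.

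Pfkfb4, a further enzyme of this family and an inducible one in tumour lines, had 2 probe sets that moved apart. The brighter, 1389396_at, read 7.01, 7.13 and 7.17 in Tumor, against 6.75, 6.91 and 6.79 in A16. The Tumor arrays were above those of A16, at a difference of 0.31 ± 0.11 that was not called (limma, adjusted p = 0.0786). With PLIER it was 0.65 and passed the adjusted p (0.0146) at 1.57-fold. The dimmer, 1368719_at, read 5.62, 6.02 and 5.97 in Tumor, against 6.43, 6.27 and 6.95 in A16. Here all Tumor arrays were below, and the difference of -0.75 ± 0.20 passed the adjusted p (0.0313) at 1.69-fold. It did not pass with PLIER, where the arrays overlapped (-0.62, adjusted p = 0.0971), nor without Tumor replicate 1 or Tumor replicate 2. Without A16 replicate 1 it reached -1.05, and without A16 replicate 2 it was -0.45, each with 1 A16 replicate left.

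**Figure D2:**
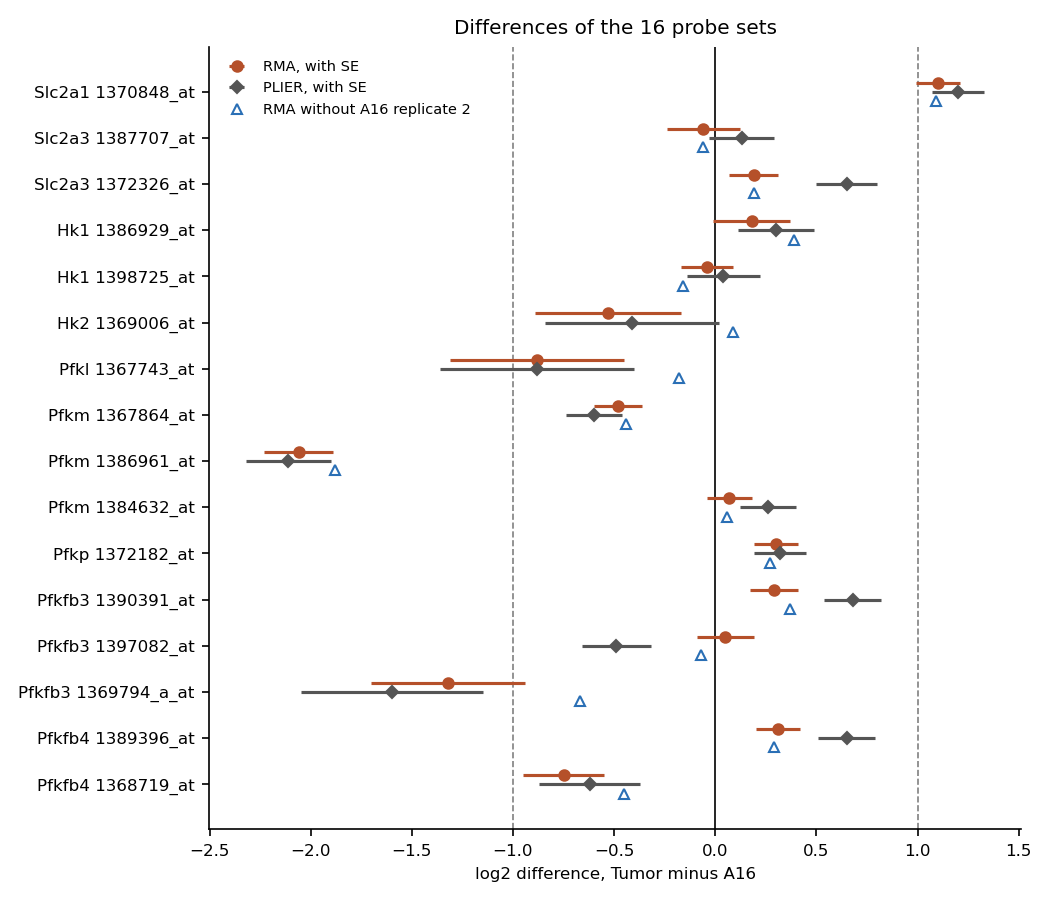
Log2 difference, Tumor minus A16 (horizontal axis), of the 16 probe sets by RMA with its SE (circles), by PLIER with its SE (diamonds), and by RMA without A16 replicate 2 (triangles), with dashed lines at 2-fold. Slc2a1 at 1.10 and Pfkm 1386961_at at -2.06 barely move between the estimates, while Hk2, Pfkl and Pfkfb3 1369794_a_at lie nearer to 0 without A16 replicate 2.

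Probe sets of 1 gene thus often differed. Of the 9 genes 4 had 1 probe set and 5 had more, and in all 5 with more at least 1 probe set was higher and at least 1 lower in Tumor by the sign of the difference. Some of these differences were smaller than their SE, as for Slc2a3 1387707_at (-0.06 ± 0.18) and for Hk1 (0.18 ± 0.19 and -0.04 ± 0.13). Over the 16 probe sets the 3 Tumor arrays were all above the A16 arrays for 5 and all below for 4, and 7 overlapped. The groups were thus apart on 9 of 16, against 52.6% of all probe sets (27.6% above and 25.0% below). With PLIER the counts of calls were again 1 higher and 2 lower, on the same 3 probe sets, and the sign of the difference changed for 3 probe sets, Slc2a3 1387707_at, Hk1 1398725_at and Pfkfb3 1397082_at.

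Spread within the groups was unequal. Across the 16 probe sets the 3 Tumor arrays spanned a median of 0.19 and at most 0.61, and the 3 A16 arrays a median of 0.32 and at most 1.5. The widest were Pfkl, Hk2 and Pfkfb3 1369794_a_at, each raised in A16 replicate 2. That array was at least 0.5 above both other A16 arrays on 4 probe sets of 4 genes, Pfkl (1.30), Pfkfb3 1369794_a_at (1.19), Hk2 (1.06) and Pfkfb4 1368719_at (0.52), and at least 1.0 above them on 3. By their brightest probe sets this held for 2 of the 9 genes, Hk2 and Pfkl, against 2.62% of all genes. Over all probe sets 4.44% stood at least 0.5 and 0.834% at least 1.0 above in this array. In Tumor replicate 2 the same excess of 0.5 was found on 1.01% of all probe sets.

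A16 replicate 2 was the highest of the 6 arrays on 6 of the 16 probe sets and on all 3 hexokinase controls, and on 18.0% of all probe sets. The hexokinase controls exceeded the next A16 array there by 1.12 at the 3′ end, 0.32 in the middle and 1.22 at the 5′ end. Slc2a1, by contrast, lay within 0.02 of the other arrays in A16 replicate 2. Among related genes the neuronal enolase Eno2 had the same excess, of 1.27, and it read 9.66, 9.75 and 9.84 in Tumor, against 9.25, 9.37 and 10.65 in A16. Its difference was -0.21 ± 0.39 (adjusted p = 0.741), and 0.46 without that array. Since n is 2 per group, which A16 replicate is the usual one cannot be told from these arrays. The pattern was noticed after the values were seen.

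**Figure D3:**
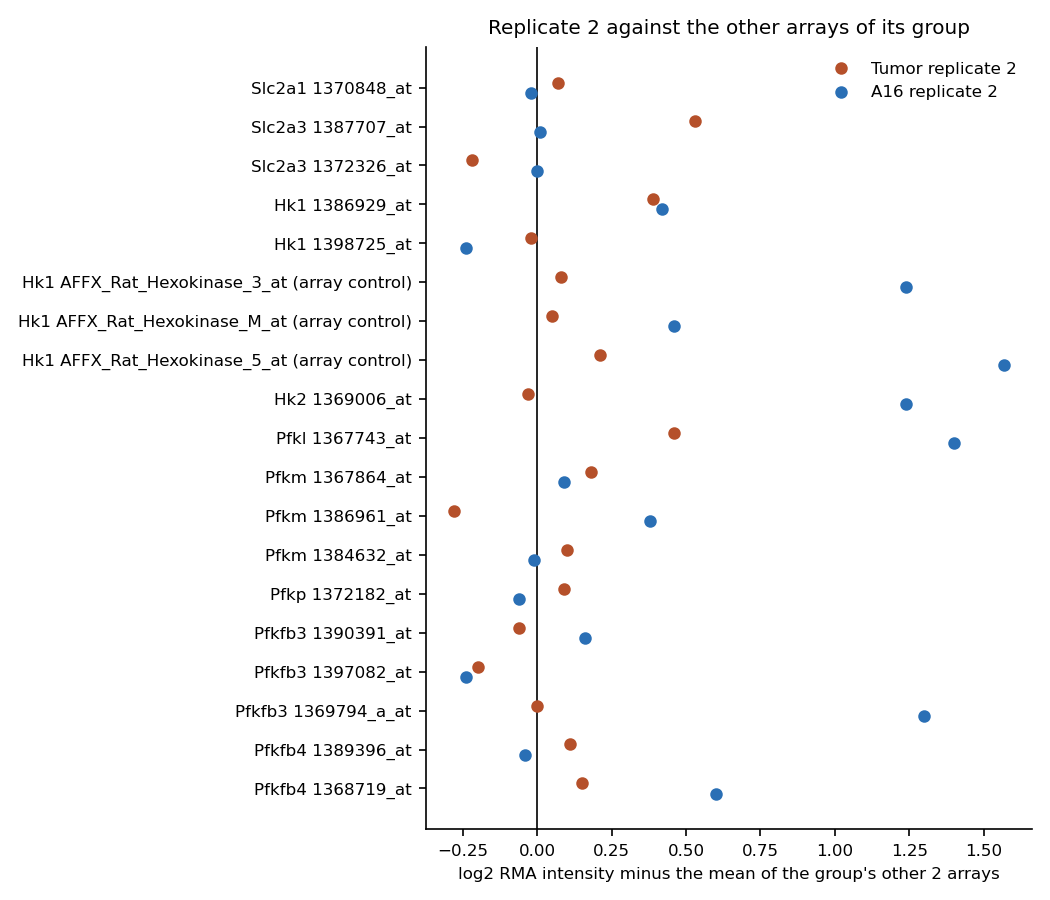
Replicate 2 of each group minus the mean of the other 2 arrays of that group (horizontal axis, log2 RMA intensity), for the 16 probe sets and the 3 hexokinase controls of the array. Tumor replicate 2 stays between -0.28 and 0.53, on the 16 probe sets, where A16 replicate 2 reaches 1.40 for Pfkl, 1.30 for Pfkfb3 1369794_a_at and 1.24 for Hk2, and A16 replicate 2 reaches 1.57 for the 5′ hexokinase control.

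Lists of neighbouring genes were read in the same fit, with the brightest probe set standing for a gene. Of all 14217 genes, 5.45% passed as higher in Tumor and 5.44% as lower (10.9% in all), around a median difference of 0.03. By the same choice the 9 genes gave 1 called higher and none lower, because the called probe sets of Pfkm and Pfkfb3 are not their brightest. Of 11 measured relatives of the transporters and hexokinases 1 was called higher, Slc2a6, and 10 were not called (median 0.12 by RMA and -0.03 by PLIER). Slc2a6, a transporter of lysosomal membranes, read 9.84, 9.85 and 9.92 in Tumor, against 6.62, 6.61 and 6.41 in A16, a difference of 3.37 ± 0.12 or 10.4-fold (limma, adjusted p = 1.87e-05). The insulin-responsive transporter Slc2a4 stood at 5.89 in Tumor and 5.71 in A16 and was not called.

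Among 7 genes of the remaining PFKFB enzymes and of gluconeogenesis, Pck2 alone was called, and it was lower. It encodes the mitochondrial form of phosphoenolpyruvate carboxykinase. The brighter of its 2 probe sets averaged 7.84 in Tumor and 10.71 in A16. The difference was -2.88 ± 0.16, or 7.35-fold lower (limma, adjusted p = 7.32e-05). Of 12 further glycolytic enzymes, including Gpi, which acts before phosphofructokinase, none was called by RMA or by PLIER, and the median was -0.17. An adjusted p under 0.05 without the fold limit was reached by 2 of the 12, Tpi1 (-0.56 ± 0.12) and Pgam2 (-0.43 ± 0.12), both lower in Tumor. Ldha, a lactate dehydrogenase subunit, stood at 13.51 in Tumor and 13.57 in A16, and Pgk1 at 13.52 in Tumor and 13.65 in A16.

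In the pentose phosphate, glycogen and hexosamine branches of glucose metabolism, 2 of 16 genes were called higher and none lower (median 0.24). With PLIER 3 were called higher and the median was 0.16, and with the mean of a gene's probe sets the median was 0.15. Gbe1, the branching enzyme of glycogen synthesis, averaged 11.20 in Tumor and 9.22 in A16, a difference of 1.98 ± 0.13 (limma, adjusted p = 0.000138). Rpia, an isomerase of the pentose phosphate pathway, averaged 10.46 in Tumor and 9.01 in A16, a difference of 1.46 ± 0.12 (adjusted p = 0.000355). The other probe set of Rpia differed by 0.27 and was not called.

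Of 17 regulators of glucose uptake and glycolytic genes, 1 was called higher and 4 lower, and the median was -0.02 by RMA and 0.19 by PLIER. Txnip, an arrestin that removes GLUT transporters from the cell surface and is itself induced by glucose, averaged 9.12 in Tumor and 10.62 in A16, a difference of -1.5 ± 0.18 (limma, adjusted p = 0.00136). Its relative Arrdc4 averaged 5.20 in Tumor and 6.61 in A16, a difference of -1.41 ± 0.16 (adjusted p = 0.00119). Both were lower on every Tumor array. Akt2, the kinase of insulin-stimulated glucose uptake, was lower by -1.15 ± 0.13 on the brightest of its 4 probe sets (limma, adjusted p = 0.00118). Arnt, the partner of Hif1a, was lower by -1.08 ± 0.24 (limma, adjusted p = 0.0159). Tbc1d1, a Rab GTPase activator in the traffic of glucose transporters, was higher by 1.18 ± 0.15 (adjusted p = 0.00178), while its other probe set differed by -0.85.

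Of these 5 regulators, 2 fell under the fold limit without A16 replicate 2, Arnt at -0.74 and Tbc1d1 at 0.99. Arnt is named outside the rule for choosing genes, after its values were seen. Hif1a averaged 12.55 in Tumor and 11.74 in A16, a difference of 0.81 ± 0.12, and Myc 10.50 in Tumor and 9.90 in A16, a difference of 0.60 ± 0.11. Both passed the adjusted p (0.00277 for Hif1a and 0.0069 for Myc) at less than 2-fold.

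**Figure D4:**
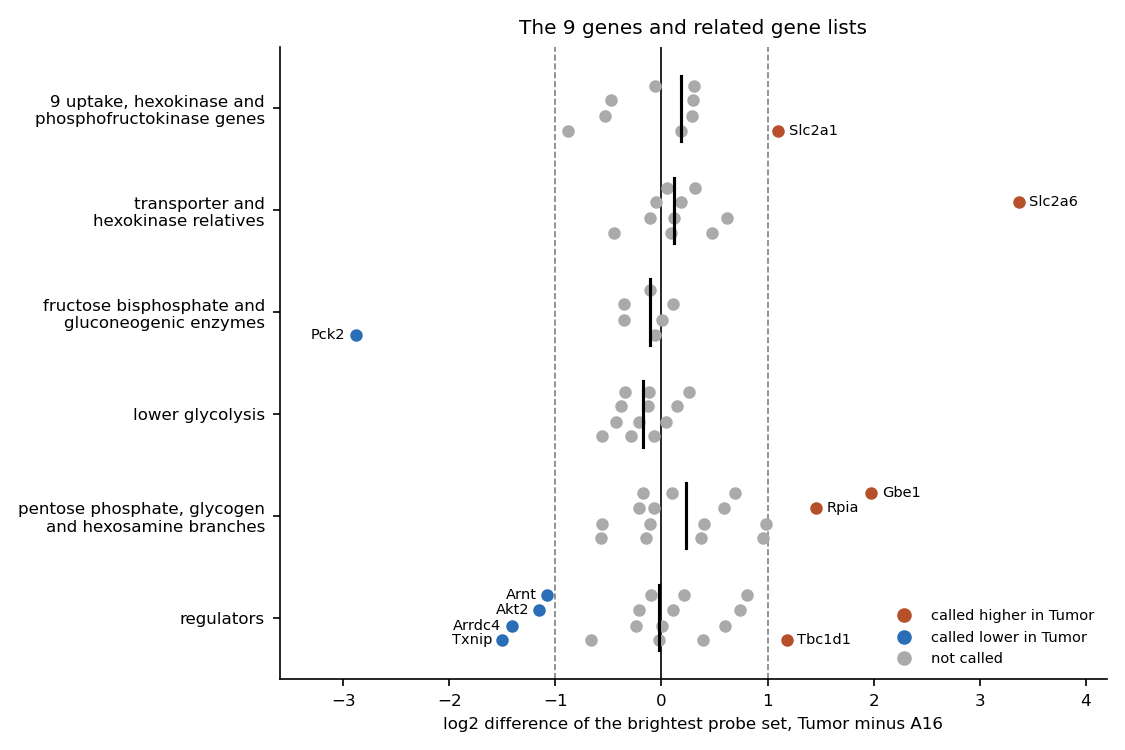
Log2 difference, Tumor minus A16 (horizontal axis), for the 9 genes and for the genes of 5 related lists, each gene by its brightest probe set, with a black bar at the median of each list and dashed lines at 2-fold. Slc2a1 is the 1 gene called among the 9, and the list labelled lower glycolysis, which includes Gpi, holds no called gene.

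Markers of other cell types were read because host cells could have come along with the tumour cells. The host was a mouse and the probes are of rat sequence, and how far mouse transcripts bind them was not tested. A dim or uncalled marker therefore cannot show that host cells were absent. Of 9 markers of macrophages and leukocytes 2 were called higher in Tumor, Csf1r (3.14 ± 0.14) and Cd68 (1.07 ± 0.12), while Ptprc, the common leukocyte antigen, stood at 5.06 in Tumor and 5.13 in A16, and Adgre1 and Tyrobp were likewise at the dim end of the array. The summed linear intensity of the list was 1672 to 1765 in Tumor and 1298 to 1450 in A16. Its brightest gene was Cd14, at 9.76 in Tumor and 9.93 in A16 and not called. Without Cd14 the others, Csf1r and Cd68 included, summed to 807 to 869 in Tumor and 370 to 424 in A16. Of 6 epithelial markers 1 was called higher, the keratin Krt8 (1.5 ± 0.13), and the summed intensity was 2185 to 2416 in Tumor and 893 to 1023 in A16, but 226 to 234 in Tumor and 221 to 238 in A16 without Krt8. None was called among 5 endothelial, 6 adipocyte, 10 skeletal muscle, 6 neural and 4 red blood cell markers. With PLIER 2 endothelial markers were called, 1 higher and 1 lower (Tie1, -1.63), as were 2 adipocyte markers, both higher. PLIER also called 2 epithelial markers higher, Krt8 and Cdh1 (1.44), and 1 fibroblast marker, Postn (1.42), beside the 3 lower ones. At any fold, limma's adjusted p was under 0.05 for 2 of the endothelial, 2 of the adipocyte, 3 of the muscle, 0 of the neural and 0 of the red blood cell markers. The part of these cell types in the Slc2a1 and Pfkm values was not tested.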

How the data were processed

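RNA of Tumor and A16 cells was profiled on 6 Affymetrix rat arrays, 3 per group. The 12 sample records are these arrays summarised by RMA and by PLIER, and the PLIER records served as an alternative only. Per the study's methods, scans were adjusted in GeneChip Operating Software 2.1 and normalised in Avadis, and the sources used here do not give versions of RMA and PLIER. Both deposited sets of values are linear array intensity, with a lowest PLIER value of 16, and were turned into log2 values here. Detection calls were not used, so a fold near the floor of the array is understated. Precision is limited by the number of arrays.

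The table held 31099 probe sets, 57 of them array controls. The platform annotation gave 1 symbol to 20826 of the others, several to 436 and none to 9780. By Entrez identifier 20758 of those with 1 symbol were found in RefSeq's gene table for GRCr8.

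Technical replicate 2 carries no biological number and was averaged on the log2 scale with replicate 1, whose label also has a technical number. The comparison of Tumor with A16 used lmFit and eBayes of limma 3.58.1 under R 4.3.3, two-sided, with Benjamini-Hochberg adjustment over 31042 probe sets, and the script was tested on simulated data. SE is the moderated standard error, and SD is over 2 replicates. A gene with several probe sets was read on each of them, and in the lists on the brightest by mean RMA value.

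All probe sets of the 9 genes were named, and from each other list the called genes, up to 4 by size of change, with Hif1a and Myc. Genes given as examples that were not called were added afterwards. The members and lists were chosen with earlier results of these data known. Alternatives were PLIER, other uses of technical replicate 2, each replicate left out, a replicate block, quantile or median scaling, a filter at the 30th percentile, a trended robust prior, the methods' t-test and, for lists, the mean of a gene's probe sets.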

Additional observations from a re-analysis of the deposited data

How the results depend on the processing

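Slc2a1 was called higher and Pfkm 1386961_at lower in all 13 alternatives that refitted limma, and no refit called another probe set of the 9 genes higher. The number called lower, 2 in all, was 1 to 5 when replicates were left out in turn, 1 with a trended and robust prior and 1 by the methods' t-test at an unadjusted p under 0.05. The 5 were Pfkm 1386961_at, Pfkfb3 1369794_a_at, Hk2, Pfkl and Pfkfb4 1368719_at, without A16 replicate 1. After Benjamini-Hochberg adjustment the methods' t-test called 4 probe sets higher and 8 lower on the whole array, and 0 and 0 among those of the 9 genes. In the refits that kept replicates 1 and 2 of each group, the array-wide counts stayed between 1635 and 2293 higher and between 1891 and 2403 lower. With only 2 replicates per group, none of the 13 probe sets that were not called is thereby shown to be equal between the groups.

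The sign of 6 uncalled probe sets turned. With PLIER the difference was 0.13 for Slc2a3 1387707_at, 0.04 for Hk1 1398725_at and -0.49 for Pfkfb3 1397082_at, and with technical replicate 2 left out it was -0.01 for Pfkm 1384632_at. When replicates were left out in turn, the difference was -0.33 to 0.20 for Slc2a3 1387707_at, -0.03 to 0.39 for Hk1 1386929_at, -0.16 to 0.07 for Hk1 1398725_at, -1.15 to 0.09 for Hk2 and -0.07 to 0.17 for Pfkfb3 1397082_at. The cause was not tested.

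With the replicate number as a block, 1715 probe sets were called higher and 2035 lower, and again 1 and 2 of the 16. The block took the adjusted p of Pfkl to 0.00641 at less than 2-fold and changed no call. The 2 groups share only the numbers: the deviations of equally numbered replicates correlated at 0.121 over probe sets, too few pairs to establish a pairing.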
